A study of Mus musculus with 8 samples.

Results

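The 43 genes described here encode the core machinery of autophagy and the receptors that choose its cargo. They were taken by name from the 55335 gene identifiers of the deposited table, with earlier results of these data known. All 43 were found there by mouse symbol, and all 43 passed the filter on low values described below. RNA was sequenced after 3 days of culture from MC3T3-E1, a mouse cell line of pre-osteoblasts that came from the calvaria. In 4 libraries the cells had been grown with TABS, the Trio-Active bone scaffold, whose make-up the sources used here do not give. In the other 4 they had been grown with HA, a hydroxyapatite scaffold doped with Mg2+. Every library came from cells on a scaffold, so a gene that is higher on TABS may be one that is lower on HA. The library names carry H for TABS and L for HA, and since no gene was altered, expression cannot check that assignment. The labels do not state whether replicates were separate cultures, so p-values measure the spread of these libraries, and that spread may be technical.

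Autophagy encloses cytoplasm in a double membrane, the autophagosome, and delivers it to the lysosome. The ULK1 kinase complex starts the process, a class III phosphatidylinositol 3-kinase complex marks the site with a lipid, and ATG9 and ATG2 supply membrane. A pair of ubiquitin-like conjugation reactions then attaches the ATG8 proteins, which are the LC3 and GABARAP proteins, to phosphatidylethanolamine on the growing membrane. Cargo receptors bind both their cargo and the ATG8 proteins, and a SNARE-containing fusion apparatus joins the closed autophagosome to the lysosome. Osteoblasts are known to use autophagy during mineralisation. The flux through the pathway is set largely after transcription, and transcript levels do not measure it.

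Values are FPKM, fragments per kilobase of transcript scaled to the library, as the authors deposited them. They allow levels to be compared between genes. Each library had 11187 to 11357 genes at 1 FPKM or more. The FPKM values of a library summed to between 304893 and 307263 in TABS and to between 312629 and 317439 in HA. Transcripts of the mitochondrial genome took 10.2% to 12.2% of that sum in TABS and 12.1% to 14.5% in HA. The 9 osteoblast markers examined summed to 4970 to 5523 FPKM in TABS and 4792 to 5011 in HA. Of them Spp1 had the higher mean in TABS (3305 and 2431 FPKM), and the other 8 had the lower one, among them Col1a1 (889 and 1171 FPKM) and Ibsp (14.5 and 50.3 FPKM). Alpl stood under 1 FPKM in every TABS library and above it in every HA library. The part of these differences in the results below was not tested. The 5 macrophage and leukocyte markers summed to at most 0.499 FPKM in TABS and 0.349 in HA, and Tyrobp, Kdr, Epcam and Myog were listed at 0 in every library. None of the 4 endothelial, 3 epithelial and 3 skeletal muscle markers reached 1 FPKM in 4 libraries, while 1 of 4 adipocyte markers (Fabp4) and 2 of 4 chondrocyte markers (Sox9 and Col2a1) did. The chondrocyte markers summed to 41.1 to 43.7 FPKM in TABS and 37.3 to 41.9 in HA. In bulk RNA, fewer cells of a type and less RNA per cell cannot be told apart.

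Levels ran over a 188-fold range, from Rb1cc1 at 1.14 FPKM to Gabarap at 214 FPKM (means of 8 libraries). Of the 43 genes, 19 had a mean of at least 10 FPKM and 11 a mean under 5 FPKM. The most abundant were ATG8 genes and receptor genes. After Gabarap came Sqstm1 at 141 FPKM, Gabarapl1 at 98.2, Map1lc3a at 51.1 and Bnip3 at 34.1. Gabarap stood above 98.4% of the 11280 genes tested and Sqstm1 above 97.4%. The lowest were Atg14 at 2.98 FPKM, Atg10 at 2.09, Atg4d at 1.46 and Rb1cc1, so that the scaffold protein of the ULK1 complex lay near the filter while its partner Atg101 stood at 12.7.

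**Figure D1:**
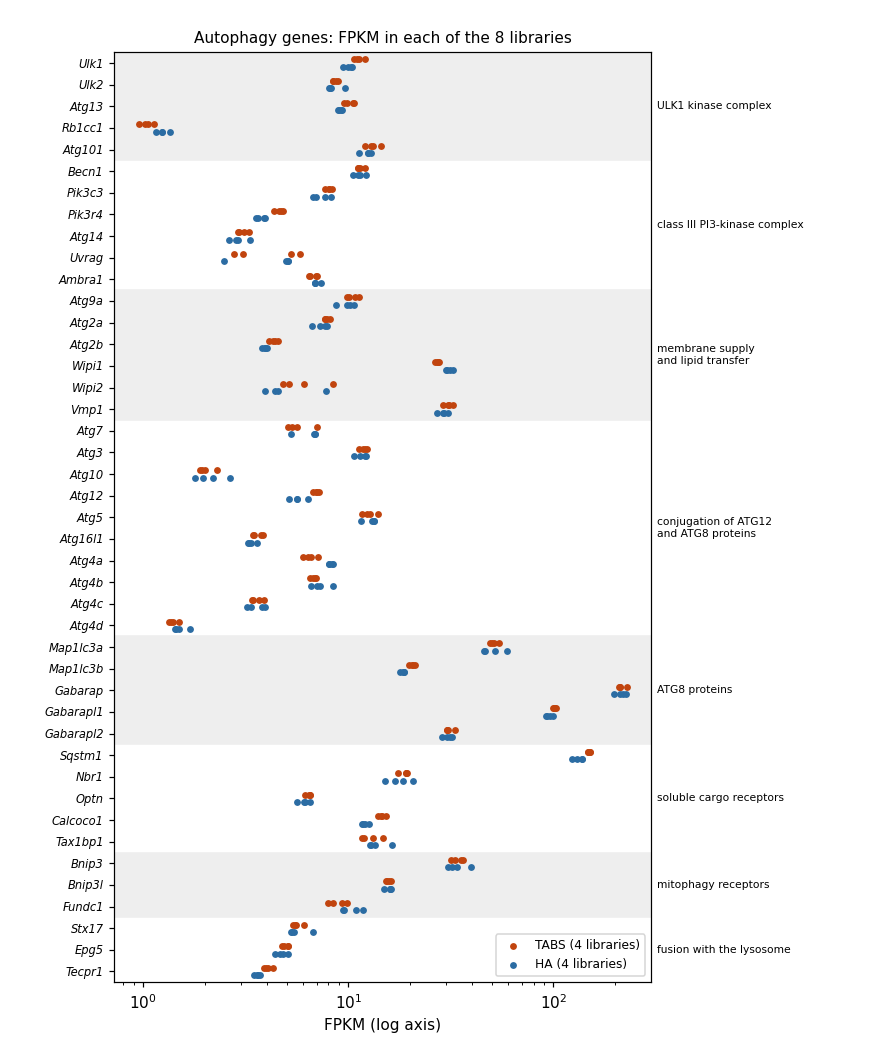
FPKM of the 43 autophagy genes on a log axis, with one point per library, TABS in orange and HA in blue, grouped by role. The clusters of points overlap or lie close together for nearly every gene, and the genes span from about 1 FPKM (Rb1cc1) to above 200 FPKM (Gabarap).

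The groups were compared with limma on log2(FPKM + 1) over all 11280 genes with at least 1 FPKM in at least 4 libraries, at a Benjamini-Hochberg adjusted p under 0.05. Few autophagy genes differed, and those that did differed in mean FPKM by at most 23.2%. Of the 43 genes, 4 rose on TABS (Calcoco1, Atg12, Pik3r4 and Map1lc3b), 2 fell (Atg4a and Wipi1) and 37 did not pass. Over all genes tested, 4.49% were called higher and 2.90% lower. The counts by role below are to be read beside these shares, and 1 call does not describe a role. Called genes made up 14% of the 43, against 7.38% of all genes, or 6 genes against 833 of 11280. The log2 fold changes had a median of 0.03 over the 43, with 29 above 0 and 14 below, and a median of 0.01 over all genes tested. Their median size was 0.08 in both sets, and the largest among the 43 was 0.30 (Atg4a). The groups did not overlap in 13 of the 43 genes (30.2%), 10 of them higher in TABS, against 18.0% of all genes tested. With 1 library left out, the 6 calls became 2 without TABS 1, TABS 2 or TABS 3, 3 without TABS 4 or HA 3, 4 without HA 2 or HA 4 and 6 without HA 1. Calls over all genes fell too, from 833 to 441, 479, 406 and 482 without TABS 1 to 4 in turn. Without HA 1 to 4 in turn they were 704, 517, 503 and 571. The balance of directions depended on scaling. Over all genes 506 were higher and 327 lower as deposited, and 915 and 239 after rescaling to TPM, where 7 of the 43 were higher and 1 lower.

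**Figure D2:**
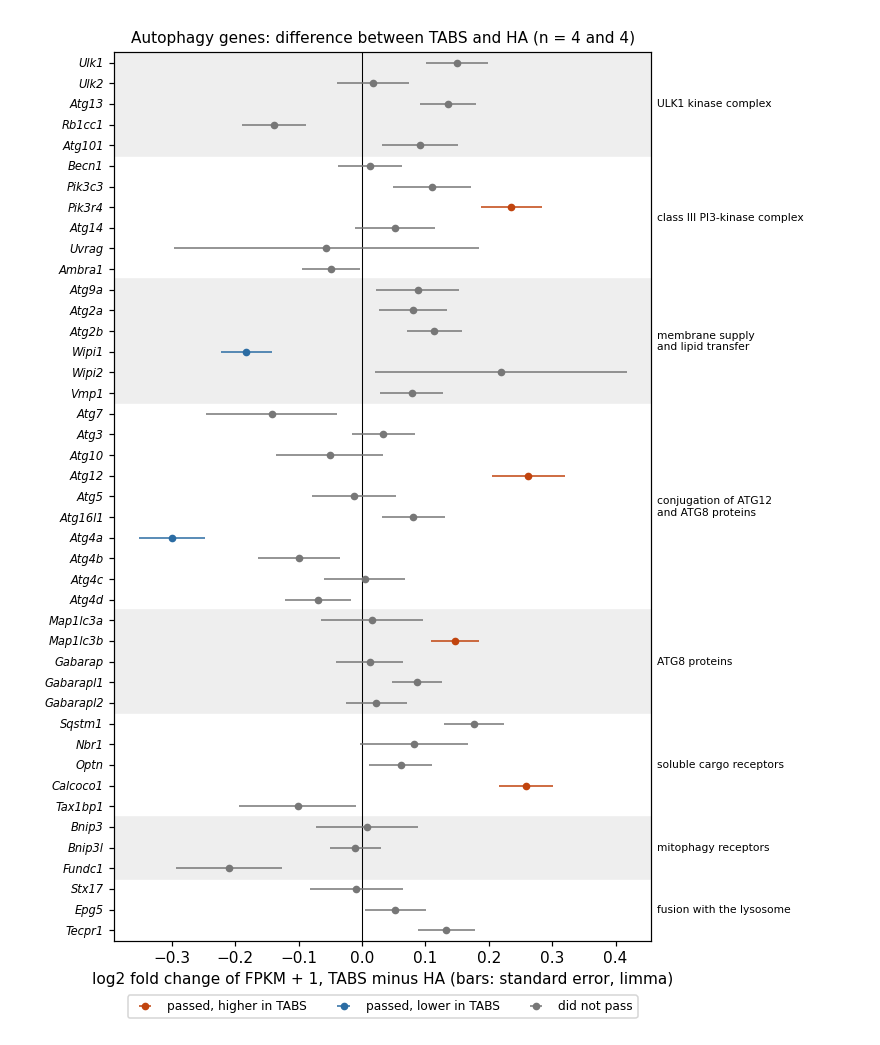
Log2 fold change of FPKM + 1 (TABS minus HA) for each gene with its standard error from limma (n = 4 and 4), coloured where the test was passed. Every value lies between -0.30 and 0.26, with 4 genes called higher and 2 lower.

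The positions of 5 of the 6 called genes are given here on GRCm38. Calcoco1 (ENSMUSG00000023055) lies on chromosome 15 from 102706777 to 102722178 and Pik3r4 (ENSMUSG00000032571) on chromosome 9 from 105642978 to 105687657. Map1lc3b (ENSMUSG00000031812) lies on chromosome 8 from 121590361 to 121598760 on the plus strand. Wipi1 (ENSMUSG00000041895) lies on chromosome 11 from 109573331 to 109611967 and Atg4a (ENSMUSG00000079418) on chromosome X from 140956907 to 141164270. RefSeq start sites of build GRCm38.p6, which can lie apart from the GENCODE gene ends, were used for these 5. Their upstream sequences are shown because these are the genes that moved, and so that those that rose can be read beside those that fell. Each runs 5′ to 3′ on the gene's strand, from 250 bases before the start to 15 bases after it. Capitals mark a match to one of the motifs searched. Of 2 starts listed for Atg4a, the one at the annotated start of the gene is shown. For Wipi1 the start used lies inside the GENCODE gene, and so does the whole window shown.
Calcoco1: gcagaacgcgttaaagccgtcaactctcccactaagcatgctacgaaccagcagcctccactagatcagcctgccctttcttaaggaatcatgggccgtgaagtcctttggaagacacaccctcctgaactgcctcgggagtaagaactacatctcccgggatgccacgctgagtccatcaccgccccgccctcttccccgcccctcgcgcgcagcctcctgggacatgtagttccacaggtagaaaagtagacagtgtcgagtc
Pik3r4: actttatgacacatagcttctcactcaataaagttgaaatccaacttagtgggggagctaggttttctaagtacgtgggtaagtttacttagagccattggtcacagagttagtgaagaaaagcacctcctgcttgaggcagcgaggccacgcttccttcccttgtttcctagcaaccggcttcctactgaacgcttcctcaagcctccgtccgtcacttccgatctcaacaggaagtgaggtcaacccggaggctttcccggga
Map1lc3b: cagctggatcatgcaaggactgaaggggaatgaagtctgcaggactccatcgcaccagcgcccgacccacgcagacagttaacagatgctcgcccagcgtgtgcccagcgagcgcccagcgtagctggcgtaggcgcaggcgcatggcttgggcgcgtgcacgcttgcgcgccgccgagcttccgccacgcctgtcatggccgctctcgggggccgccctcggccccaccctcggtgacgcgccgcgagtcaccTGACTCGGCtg
Wipi1: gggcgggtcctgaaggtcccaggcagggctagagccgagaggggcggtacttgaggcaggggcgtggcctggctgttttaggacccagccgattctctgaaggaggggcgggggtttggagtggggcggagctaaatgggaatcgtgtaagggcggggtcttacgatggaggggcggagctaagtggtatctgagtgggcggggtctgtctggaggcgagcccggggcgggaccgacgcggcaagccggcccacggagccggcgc
Atg4a: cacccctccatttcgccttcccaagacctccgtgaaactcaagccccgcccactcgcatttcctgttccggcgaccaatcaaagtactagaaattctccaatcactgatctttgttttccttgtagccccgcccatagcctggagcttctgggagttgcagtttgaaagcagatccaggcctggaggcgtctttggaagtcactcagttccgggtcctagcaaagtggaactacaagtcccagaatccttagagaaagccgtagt

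The windows are chr15:102722164-102722428 on the minus strand for Calcoco1, chr9:105642745-105643009 on the plus strand for Pik3r4 and chr8:121590188-121590452 on the plus strand for Map1lc3b. Those of the genes that fell are chr11:109611375-109611639 on the minus strand for Wipi1 and chrX:140956657-140956921 on the plus strand for Atg4a. They differ in composition within each direction. GC made up 57.4% of the window of Calcoco1, 49.8% of Pik3r4 and 69.4% of Map1lc3b, and 68.3% of Wipi1 and 52.1% of Atg4a, against a median of 52.5% over all promoters. The motifs were searched on both strands over 300 bases, in 41 promoters of 35 of the 43 genes and in all 32851 promoters of the RefSeq table. The E-box core CACGTG was found in 5 of 41 (12.2%) and in 7.15% of all, in Atg14, Atg3, Atg5, Atg7 and Bnip3, and in 0 of the 5 called genes searched. For Atg14 and Atg7 the window searched lies inside the GENCODE gene. Atg12 had no promoter in the table matched here and was not searched. The CLEAR palindrome bound by TFEB, which contains that core, was in 0 of 41 and in 0.326% of all. The FOXO core GTAAACA was in 0 of 41 and in 3.65% of all. The antioxidant response element core TGACNNNGC was in 7 of 41 (17.1%) and in 12.4% of all. These 7 promoters belong to 5 genes (Atg13, Map1lc3b, Tax1bp1, Ulk2 and Vmp1), since 3 starts of Vmp1 matched. Not all 3 of these starts lie at the annotated start of Vmp1. Map1lc3b was the called gene that held this core, and its match lies after the start site, not upstream of it. A match is a description, not a binding site.

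Among the 5 genes of the ULK1 kinase complex, 0 passed and 3 had an unadjusted p under 0.05, as had 24.1% of all genes tested (2716 of 11280). Ulk1, the kinase that phosphorylates the complexes downstream, stood at 11.27, 10.65, 12.03 and 11.02 FPKM in TABS 1 to 4 and at 10.3, 10.4, 9.97 and 9.44 in HA 1 to 4. The groups did not overlap for Ulk1, but the difference missed the threshold (0.15 ± 0.05 SE, limma adjusted p = 0.102). After rescaling to TPM, Ulk1 passed (0.20, adjusted p = 0.0448). So did Atg13, the regulatory subunit (10.1 ± 0.52 and 9.12 ± 0.17 FPKM in TABS and HA, SD, n = 4, adjusted p = 0.102 as deposited and 0.0403 as TPM). Atg101, which stabilises Atg13 and was the most abundant of the complex, read 12.1, 13.2, 14.4 and 12.8 FPKM in TABS and 12.4, 12.4, 11.3 and 12.9 in HA. The TABS and HA libraries overlapped for Atg101 (adjusted p = 0.385). Rb1cc1, which encodes the scaffold protein FIP200, lay the other way, between 0.95 and 1.12 FPKM in TABS and between 1.15 and 1.35 in HA (-0.14 ± 0.05, adjusted p = 0.136). Ulk2, the paralogue of Ulk1, stood at 8.59 ± 0.21 and 8.49 ± 0.73 FPKM (adjusted p = 0.886).

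In the class III phosphatidylinositol 3-kinase complex 1 of 6 genes rose and 0 fell. It was Pik3r4, which encodes VPS15, the regulatory subunit that anchors the lipid kinase. Pik3r4 read 4.59, 4.79, 4.70 and 4.33 FPKM in TABS and 3.56, 3.89, 3.94 and 3.64 in HA. Every TABS library was above every HA library, and the mean was 22.4% higher (log2 fold change 0.24 ± 0.05, adjusted p = 0.0206). Leaving out TABS 1, TABS 2 or TABS 3 ended the call on Pik3r4 (adjusted p from 0.0575 to 0.0655). The catalytic subunit gene Pik3c3 stood at 8.05 ± 0.27 and 7.40 ± 0.69 FPKM with overlapping groups (0.11, adjusted p = 0.310). Becn1, the beclin 1 gene and the most abundant of the complex, read 11.18, 11.34, 11.16 and 12.03 FPKM in TABS and 10.5, 11.1, 11.4 and 12.2 in HA. The ranges of Becn1 overlapped nearly in full (0.01 ± 0.05, adjusted p = 0.911). Atg14, the subunit that directs the complex to autophagy, did not pass either (3.05 ± 0.18 and 2.91 ± 0.29 FPKM, adjusted p = 0.663), nor did the activator gene Ambra1 (6.74 ± 0.32 and 7.00 ± 0.23 FPKM, adjusted p = 0.561). Uvrag, the alternative subunit to Atg14, varied more within the groups than between them (4.23 ± 1.54 and 4.40 ± 1.28 FPKM).

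Of the 6 genes of membrane supply and lipid transfer, 1 fell and 0 rose. Wipi1, which encodes a propeller protein that binds the lipid made by the kinase complex, read 27.1, 27.5, 27.7 and 26.4 FPKM in TABS and 30.18, 29.96, 32.48 and 31.38 in HA. All TABS libraries were below all HA libraries, and the mean fell by 12.3% (27.2 ± 0.57 and 31.0 ± 1.17, log2 fold change -0.18 ± 0.04, adjusted p = 0.0287). The call on Wipi1 was lost without any 1 library except HA 1 or HA 2 (adjusted p up to 0.0876) and after rescaling to TPM (adjusted p = 0.0557). Its paralogue Wipi2, whose protein recruits the conjugation complex, scattered in both groups (6.10 ± 1.61 and 5.15 ± 1.76 FPKM, adjusted p = 0.544). Vmp1, which encodes a lipid scramblase of the endoplasmic reticulum, was the most abundant of these genes. It read 32.3, 28.8, 30.9 and 30.5 FPKM in TABS and 27.1, 28.9, 30.5 and 29.3 in HA, with groups that overlapped (adjusted p = 0.368). The scramblase gene Atg9a (10.5 ± 0.65 and 9.84 ± 0.83 FPKM, adjusted p = 0.449) and the lipid-transfer genes Atg2a (adjusted p = 0.388) and Atg2b (adjusted p = 0.1498) did not pass. For Atg2b the groups did not overlap (4.08 to 4.52 FPKM in TABS and 3.78 to 4.03 in HA).

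Of the 10 conjugation genes, 1 rose and 1 fell. Atg12 (ENSMUSG00000032905), the ubiquitin-like protein that is joined to ATG5, read 6.96, 7.18, 7.04 and 6.75 FPKM in TABS and 5.12, 5.61, 5.60 and 6.34 in HA. All TABS libraries lay above HA 4, the highest HA library, and the mean was 23.2% higher (0.26 ± 0.06, adjusted p = 0.0287). Only without HA 1 or HA 4 did the call on Atg12 survive the loss of 1 library. Without another it ended (highest adjusted p 0.0768), as it did with no filter on low values (0.0664). Without HA 4 the difference was 0.31 (adjusted p = 0.0106). Its acceptor gene Atg5, the most abundant of the 10, did not follow. Atg5 read 12.35, 14.01, 11.66 and 12.79 FPKM in TABS and 11.476, 12.995, 13.370 and 13.411 in HA, with overlapping groups (-0.01 ± 0.07, adjusted p = 0.939). The partner gene Atg16l1, which places the conjugate on the membrane, stood at 3.61 ± 0.20 and 3.35 ± 0.15 FPKM (adjusted p = 0.357).

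Atg4a, one of 4 genes of the proteases that prime ATG8 proteins and release them from lipid, showed the largest fold change among the 43 genes. It read 6.56, 6.34, 5.98 and 7.11 FPKM in TABS and 8.07, 8.36, 8.02 and 8.42 in HA. The lowest HA library was 8.02 FPKM, above the highest TABS library, and the log2 fold change was -0.30 ± 0.05 (adjusted p = 0.0107). The call on Atg4a held without each of the 8 libraries in turn (adjusted p between 0.0098 and 0.0358). Its paralogues did not pass, with 6.75 ± 0.20 and 7.32 ± 0.77 FPKM for Atg4b (adjusted p = 0.382), 3.58 ± 0.23 and 3.57 ± 0.34 for Atg4c (adjusted p = 0.979) and 1.40 ± 0.07 and 1.52 ± 0.12 for Atg4d (adjusted p = 0.450). The 4 proteases together summed to 17.6 to 18.8 FPKM in TABS and 20.3 to 21.2 in HA. Atg4a made up 33.8% to 37.9% of that sum in TABS and 38.1% to 41.3% in HA, ranges that do not overlap. Within a library Atg4a stood to Atg4c as 1.82 ± 0.20 in TABS and as 2.31 ± 0.22 in HA, with no overlap. Of 14 ratios between paralogues among the 43 genes, it was the one whose groups did not overlap. These shares and ratios are descriptions with no test, and those with Atg4a reuse the values behind its call. A near-identical locus, Atg4a-ps, which matches Atg4a at 99.3% over 2115 bases, can share reads with it and was listed at 0.547 ± 0.045 FPKM in TABS and 0.629 ± 0.053 in HA.

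The remaining conjugation enzymes did not pass. Atg7, the activating enzyme for both ubiquitin-like systems, stood at 5.76 ± 0.88 and 6.45 ± 0.78 FPKM (adjusted p = 0.438). Atg3, the conjugating enzyme for ATG8 proteins, stood at 11.8 ± 0.41 and 11.6 ± 0.66 FPKM (0.03, adjusted p = 0.726). With GC content and length corrected, Atg3 passed (0.15, adjusted p = 0.0297). Atg10, the conjugating enzyme for ATG12, stood at 2.02 ± 0.18 and 2.15 ± 0.37 FPKM (adjusted p = 0.764). For Atg4d, 19.3% of the exon bases overlap the opposite-strand gene Kri1, which stood higher at 4.91 FPKM. The sources used here give no strand setting, so reads of such pairs cannot be told apart. The same holds for 17.3% of the exon bases of Sqstm1, over Mrnip at 1.73 FPKM, and 43.9% of those of Becn1, over Cntd1 at 0.0179 FPKM.

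In the ATG8 family 1 of 5 genes rose and 0 fell. Map1lc3b, the LC3B gene whose lipidated protein is the usual marker of autophagosomes, read 19.8, 20.4, 20.6 and 21.2 FPKM in TABS and 17.9, 18.7, 18.5 and 18.6 in HA. The groups did not overlap, and the mean was 11.3% higher (0.15 ± 0.04, adjusted p = 0.0483). This call was lost without any single library (adjusted p from 0.0724 to 0.137), with median-of-ratios scaling (adjusted p = 0.057), quantile normalization (0.0705), constant prior variance (0.0592), robust variances (0.0549) and no filter (0.0502), and with GC content and length corrected (0.10, adjusted p = 0.0758). A near-identical pseudogene, Gm6055, was listed above Map1lc3b and can share its reads. Gabarap, the most abundant of the 43 genes, read 212, 209, 210 and 228 FPKM in TABS and 225, 218, 212 and 197 in HA. Its ranges overlapped (0.01 ± 0.05, adjusted p = 0.918). Gabarapl1 stood at 101 ± 1.47 and 95.3 ± 3.25 FPKM, with TABS above HA in every library but no call (0.09 ± 0.04, adjusted p = 0.209). Map1lc3a, the LC3A gene, stood at 51.2 ± 2.25 and 50.9 ± 6.37 FPKM (adjusted p = 0.932) and Gabarapl2, which also has such a copy, at 31.0 ± 1.37 and 30.5 ± 1.45 (adjusted p = 0.823). The spread of Map1lc3a in HA ran from 59.6 FPKM in HA 1 to 45.7 in HA 4, and the mitochondrial share of the same libraries from 12.1% to 14.5%. The part of that share in the spread was not tested.

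By FPKM the family was mostly GABARAP transcripts in both groups. Gabarap took 51.3% ± 1.008 of the summed FPKM of the 5 genes in TABS and 52.2% ± 0.61 in HA (SD, n = 4). Gabarapl1 took 24.2% ± 0.30 and 23.4% ± 0.89, Map1lc3a 12.2% ± 0.50 and 12.4% ± 1.08, and Gabarapl2 7.41% ± 0.34 and 7.49% ± 0.54. Map1lc3b was the smallest at 4.90% ± 0.07 and 4.53% ± 0.27, with 4.81% the lowest share in TABS and 4.84% the highest in HA. Reads of Map1lc3b and Gabarapl2 can be split with their near-identical copies, so the shares and this rank are uncertain. The sum itself ran from 410 to 434 FPKM in TABS and from 384 to 428 in HA.

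**Figure D3:**
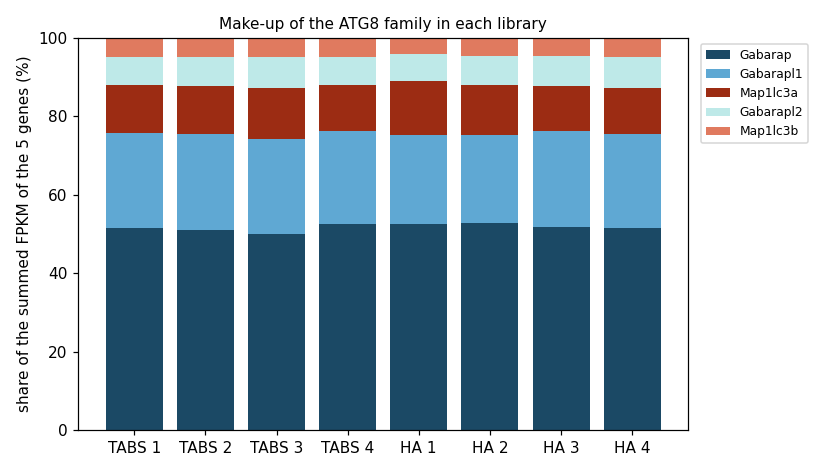
Share of the summed FPKM of the 5 ATG8 genes that each gene took, with one stacked bar per library. Gabarap takes 50.1% to 52.7% in every library and Map1lc3b 4.19% to 4.98%.

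Of the 5 soluble cargo receptors 1 rose and 0 fell. Calcoco1, a receptor for endoplasmic reticulum and Golgi membrane, had the smallest adjusted p of the 43 genes. It read 15.26, 14.54, 14.48 and 14.01 FPKM in TABS and 12.02, 12.59, 11.79 and 11.66 in HA. The groups did not overlap, and the mean was 21.3% higher (0.26 ± 0.04, adjusted p = 0.00808). The call on Calcoco1 held without each of the 8 libraries in turn (adjusted p from 0.0147 to 0.0301). Sqstm1, which encodes p62, the main receptor for ubiquitin-tagged protein, read 151, 148, 148 and 151 FPKM in TABS and 138, 138, 130 and 123 in HA. All TABS libraries lay above all HA libraries, yet the difference did not pass (149 ± 1.77 and 132 ± 7.56 FPKM, 0.18 ± 0.05, adjusted p = 0.0561). Sqstm1 passed after rescaling to TPM (0.22, adjusted p = 0.0216), with quantile normalization (0.0106), with GC content and length corrected (0.14, adjusted p = 0.0389), with a filter of 5 FPKM (0.0472) and without HA 1 (0.0479). HA 3 and HA 4, the lowest for Sqstm1, had the highest mitochondrial shares, 13.8% and 14.5%, whose part in this spread was not tested.

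The remaining receptors did not pass. Nbr1, which works with p62, stood at 18.8 ± 0.88 and 17.8 ± 2.39 FPKM (adjusted p = 0.601). Optn, the optineurin gene, stood at 6.40 ± 0.19 and 6.10 ± 0.38 FPKM (adjusted p = 0.489), and Tax1bp1, a receptor for protein aggregates, at 12.9 ± 1.42 and 13.9 ± 1.69 (adjusted p = 0.546). None of the 3 mitophagy receptor genes passed in the limma test, and 1, Fundc1, had an unadjusted p under 0.05 (24.1% over all genes). Bnip3, a receptor on the outer mitochondrial membrane whose gene is induced by hypoxia, read 31.6, 33.1, 36.4 and 35.4 FPKM in TABS and 39.7, 30.6, 33.9 and 31.9 in HA. The HA range enclosed the TABS range (0.01 ± 0.08, adjusted p = 0.966). Its paralogue Bnip3l stood at 15.6 ± 0.40 and 15.8 ± 0.53 FPKM (adjusted p = 0.910). Both have near-identical pseudogenes that can share their reads. Fundc1, the third of these receptors, read 9.28, 9.88, 8.42 and 7.92 FPKM in TABS and 9.57, 9.45, 10.9 and 11.8 in HA. The groups overlapped through TABS 2 (-0.21 ± 0.08, adjusted p = 0.165).

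Of the 3 fusion genes, 0 passed and 1 had an unadjusted p under 0.05 (24.1% over all genes). Tecpr1, which tethers autophagosomes to lysosomes, read 4.05, 3.95, 4.31 and 3.86 FPKM in TABS and 3.60, 3.62, 3.47 and 3.71 in HA. The groups did not overlap, but the difference did not pass (0.13 ± 0.05, adjusted p = 0.110). Stx17, the autophagosomal SNARE, read 5.37, 6.09, 5.58 and 5.47 FPKM in TABS and 5.24, 5.45, 5.34 and 6.71 in HA. It overlapped in full (adjusted p = 0.960). The tethering factor gene Epg5 stood at 4.94 ± 0.15 and 4.73 ± 0.28 FPKM (adjusted p = 0.546).

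**Figure D4:**
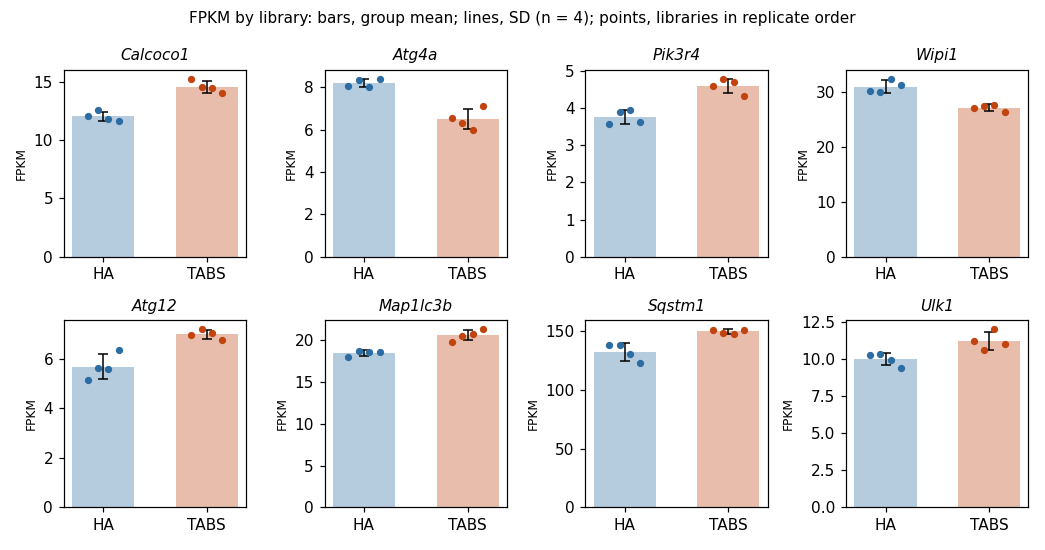
FPKM of the 6 genes that passed the test and of Sqstm1 and Ulk1, which did not. Bars are group means from 0, lines the SD (n = 4) and points the libraries. In these 8 genes the groups do not overlap, as in 30.2% of the 43 genes and 18.0% of all genes tested.

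Fold changes followed the GC content of the transcripts. Over the 43 genes Spearman's rho between the GC content of the longest transcript and the log2 fold change was 0.46, against 0.35 over 11277 genes tested. Genes are not independent replicates, so this is a description. All 7 members with a GC content of at least 55% had a fold change above 0 (median 0.09), among them Calcoco1, Ulk1 and Tecpr1. Of the 8 below 43%, 6 had one below 0 (median -0.08), among them Atg4a, Rb1cc1 and Fundc1. After a correction for GC content and length, Calcoco1 (0.21, adjusted p = 0.0169), Pik3r4 (0.18, adjusted p = 0.0310), Atg12 (0.28, adjusted p = 0.0025), Atg4a (-0.22, adjusted p = 0.0350) and Wipi1 (-0.22, adjusted p = 0.00855) still passed. With it, 7 of the 43 were called, 5 higher and 2 lower. Calls over all genes rose as well, from 833 to 975, 506 higher and 469 lower.

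**Figure D5:**
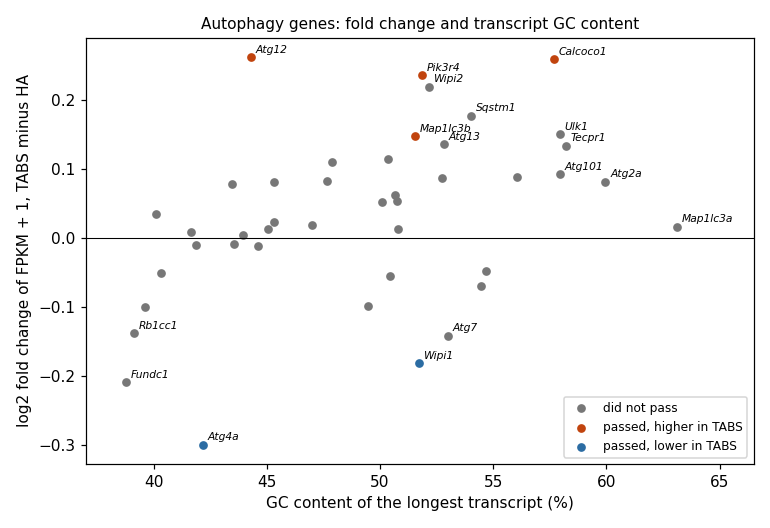
Log2 fold change of FPKM + 1 (TABS minus HA) against the GC content of the longest transcript for the 43 genes. Points rise from lower left to upper right (Spearman's rho 0.46), with Fundc1 and Rb1cc1 at the low end of GC content and Atg2a and Map1lc3a at the high end.

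Other genes of the pathway were given by lists chosen by function. Of 28 tested further autophagy factors, 1 fell and 0 rose (median log2 fold change 0.04). It was Trp53inp2, which encodes a nuclear protein that binds ATG8 proteins and moves to the autophagosome (30.02 ± 1.85 and 37.03 ± 0.87 FPKM, -0.30 ± 0.05, adjusted p = 0.00893). Of 19 tested further receptors of selective autophagy, 2 fell and 0 rose (median 0.01). After rescaling to TPM 1 gene of this list was lower and 1 higher. As deposited, the 2 that fell encode receptors for the endoplasmic reticulum. Atl3, a membrane-shaping GTPase, stood at 31.2 ± 1.17 and 38.6 ± 2.94 FPKM (-0.30, adjusted p = 0.0166) and Sec62, a subunit of the translocation channel, at 16.6 ± 1.28 and 20.5 ± 1.69 (-0.29, adjusted p = 0.0420). Neither passed without TABS 3 or without TABS 4, and the list held 1 call without TABS 2, HA 1, HA 3 or HA 4.

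Of 34 tested regulators in the mTORC1 and AMPK pathways, which restrain and promote ULK1, 1 rose and 1 fell (median 0.02). Fnip2, a partner of folliculin, rose from 6.24 ± 0.62 FPKM in HA to 7.74 ± 0.22 in TABS (0.28 ± 0.06, adjusted p = 0.0326). Prkab2, an AMPK beta subunit, fell from 6.77 ± 0.20 to 5.73 ± 0.29 FPKM (-0.21 ± 0.05, adjusted p = 0.0293). The list held 2 calls without HA 3, 1 without HA 4 and 0 without any other single library or with no filter on low values. After rescaling to TPM 4 were higher and 1 lower, and with GC content and length corrected 1 was higher and 3 lower. Of 14 tested transcription factors of autophagy genes, 1 rose and 0 fell (median 0.07). It was Foxo3, a forkhead factor (27.0 ± 0.57 and 24.1 ± 0.74 FPKM, 0.16 ± 0.04, adjusted p = 0.0396). The list held 1 call without HA 4 and 0 without any other single library. Tfeb, which drives lysosome and autophagy genes, stood at 3.27 ± 0.17 and 3.11 ± 0.385 FPKM (adjusted p = 0.672), and its relative Tfe3 at 4.996 ± 0.375 and 4.34 ± 0.30 (adjusted p = 0.137).

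Hif1a, which encodes the hypoxia-responsive subunit that induces Bnip3, lay lower in all TABS libraries without passing (26.3 ± 0.63 and 31.0 ± 2.92 FPKM, -0.22 ± 0.06, adjusted p = 0.0623). Of 18 tested HIF targets other than Bnip3, 0 passed in limma (median log2 fold change 0.05) and 3 had an unadjusted p under 0.05, against 24.1% of all genes tested. Fold changes of these targets were above 0 in 15 and below 0 in 3, against 5860 and 5420 over all genes tested. Hk2, a hexokinase gene, came nearest (6.10 ± 0.22 and 5.12 ± 0.44 FPKM, 0.22 ± 0.06, adjusted p = 0.0537). With a filter of 5 FPKM or after rescaling to TPM, 1 gene of this list passed, and without HA 1 there were 2. These lists were set beside a background of 7.38% called in either direction.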

How the data were processed

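RNA of 8 MC3T3-E1 libraries (4 TABS, 4 HA) was sequenced. The authors deposited 1 FPKM value per gene and library, with library names in the file header matched to the labels. The submitters' processing notes name fastp, STAR, DESeq2 and the build GRCm38. For tool versions and roles, annotation and strand setting: not given in the sources used here.

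Identifiers were given symbols from GENCODE M21 (55154 of 55335 matched). Genes with at least 1 FPKM in at least 4 libraries (11280) were compared with limma 3.58.1 (R 4.3.3) on log2(FPKM + 1), with trended variances, two-sided, with Benjamini-Hochberg adjustment over all of them. Fold changes on this scale understate those of low genes. The script was tested on simulated data. The members and lists were chosen with earlier results of these data known. Values per library were given for each called member and, in each role, for the most abundant member and that with the smallest adjusted p, and group means for up to 3 called genes of each further list or, where none passed, the nearest. Tfeb, Tfe3 and Hif1a were given whatever their values. 1 other gene to be named by this rule is not reported here. Read totals were not used: if the steps seen in single-exon genes are fragments, 1 FPKM in 1 kilobase stood for 18.3 to 26.0 fragments, but only 21.1% to 27.2% of low values were whole within 0.02, so no count test was run. No 2 libraries were identical. Alternatives covered pseudocount, filter, scaling, variances, GC content and length, a replicate block and each library left out.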

Additional observations from a re-analysis of the deposited data

Results flagged for a closer look

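In 86 groups of 4 libraries (43 genes in TABS and in HA), 10 held 1 library far from the other 3 by Dixon's criterion, where chance gives about 1 in 20. Uvrag stood at 2.47 FPKM in HA 1 and at 4.96 to 5.08 in the other HA libraries. Wipi2 stood at 7.77 FPKM in HA 1 against 3.93 to 4.53, and Atg7 at 5.28 in HA 3 against 6.78 to 6.89. Ulk2 stood at 9.59 FPKM in HA 4 against 8.06 to 8.19, and Stx17 at 6.71 in HA 4 against 5.24 to 5.45. Ambra1 stood at 7.34 FPKM in HA 2 against 6.87 to 6.91, and Bnip3l at 14.97 in HA 2 against 16.0 to 16.1. In TABS 4, Gabarap stood at 228 FPKM against 209 to 212 in the other TABS libraries, and Nbr1 at 17.5 against 19.1 to 19.4. Gabarapl2 stood at 33.1 FPKM in TABS 3 against 30.2 to 30.6. None of the 10 belongs to a gene that passed the test.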

How the results depend on the processing

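Across 20 alternatives, the 833 genes called in all became 542 with no filter on low FPKM and 406 to 704 with 1 library left out, and the 6 of the 43 autophagy genes became 2 to 6 with 1 library left out. Their median log2 fold change stayed between 0.02 and 0.08. The higher share of all calls depended on scaling, with 506 higher and 327 lower as deposited, 915 and 239 as TPM, and 506 and 469 with GC content and length corrected. Among further autophagy factors the 1 call became 2 with a pseudocount of 0.1, quantile normalization, constant prior variance or the GC and length correction, and 3 as TPM. With any 1 library left out the count was 1. The 2 further receptors, both lower, became 1 higher and 1 lower as TPM, 1 with no filter and 0 to 2 with a library left out. The 2 genes of the mTORC1 and AMPK list became 0 with no filter, 5 as TPM (4 higher), 4 with the correction (1 higher) and 0 to 2 with a library left out. The 1 transcription factor became 2 with a filter of 5 FPKM or the correction, 3 as TPM, 0 with quantile normalization and 0 or 1 with a library left out. The 0 HIF targets became 1 with a filter of 5 FPKM or as TPM, and 0 to 2 with a library left out. A replicate block left 230 genes called in all, 1 of the 43 (Atg4a) and 0 of the further factors, receptors, mTORC1 and AMPK genes and transcription factors. With the block and the GC and length correction together there were 340 in all, 1 of the 43 (Atg12), 1 further factor, 1 further receptor, 2 mTORC1 and AMPK genes (both lower) and 0 transcription factors. The labels do not state whether the replicate numbers pair the libraries, and correlations this weak cannot settle it. Same-numbered libraries deviated from their group means with correlations of 0.10, 0.05, -0.10 and -0.06. TABS 1 correlated best with HA 1, while TABS 2, 3 and 4 each correlated better with another number. Where calls changed, the cause was not tested. Alternatives differ in the libraries and genes that they hold: no filter holds more genes, and the replicate block holds the same libraries and genes. The read depth is unknown, so no counting error can be given for single values.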

Other observations

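Map1lc3b, Gabarapl2, Bnip3l, Bnip3 and Atg4a each have a near-identical copy elsewhere in the genome that was listed at a mean of at least 0.5 FPKM, with at least 98% identity over more than 200 bases. The processed pseudogene Gm6055 matches Map1lc3b at 99.6% over 282 bases and was listed above it, at 25.6 ± 1.59 FPKM in TABS and 22.7 ± 3.23 in HA (limma adjusted p = 0.316, n = 4). Gm3724 matches Gabarapl2 at 99.4% over 349 bases and was listed at 10.3 ± 1.15 and 9.70 ± 0.38 FPKM. Bnip3l-ps stood at 3.80 ± 0.23 and 4.03 ± 0.25 FPKM, and Gm6532, which matches Bnip3, at 2.48 ± 0.42 and 2.88 ± 0.39. Reads can be split between a gene and such a copy, so the levels of these 5 members are uncertain.

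Within groups most of the 43 genes varied little. Their pooled SD of log2(FPKM + 1) had a median of 0.068, against 0.088 over all genes tested. Uvrag (0.42, above 98.1% of genes tested) and Wipi2 (0.34, above 97.1%) were exceptions. Uvrag stood at 3.07 and 2.77 FPKM in TABS 1 and TABS 4 and at 2.47 in HA 1, and between 4.96 and 5.82 in the other 5 libraries. Wipi2 reached 8.38 FPKM in TABS 2 and 7.77 in HA 1, and between 3.93 and 6.06 in the others. The libraries that stood apart belonged to both groups. Car9, a hypoxia-induced carbonic anhydrase gene, stood at 44.8 FPKM in HA 1 and at 25.6 to 26.0 in HA 2, 3 and 4, against 38.3 to 42.8 in TABS. It was named after its values were seen.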
